A study of Mus musculus with 24 samples.

Results

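The 49 genes described here encode proteins that fold chromatin, tether it to the nuclear envelope or compact it as heterochromatin, with the enzymes that write, read or remove the marks involved. They were listed by name among 21631 genes, with earlier results of these data known and with no measured value in the rule, and each of the 49 was matched to a gene body on the mouse genome build mm10. Open chromatin had been mapped by ATAC-seq, in which a transposase cuts accessible DNA, in 3 successive stages of B lymphocyte development in bone marrow: pre-pro-B cells, then pro-B cells, then small pre-B cells. The cells had been sorted from wild-type (WT) mice and from mice without Mki67 (Mki67-/-), the gene of the proliferation marker Ki-67, and the 6 groups of stage and genotype held 4 libraries each, 24 in all. The 3 WT groups served as controls of the 3 Mki67-/- groups. The strain, age and sex of the mice, the way the Mki67 allele was disrupted and the surface markers of the sort are not given in the sources used here. Nothing in the labels says that the 4 libraries of a group came from separate mice, so every p-value below measures only the spread between these libraries, which may be technical.

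Cohesin is a ring of Smc1a, Smc3, Rad21 and Stag1 or Stag2 that is loaded on DNA by Nipbl, extrudes loops until it meets bound CTCF, and is released by Wapl with the help of Pds5a or Pds5b. Heterochromatin is marked by methylation of histone H3 at lysine 9, read by the HP1 proteins (Cbx1, Cbx3, Cbx5), or by methylation at lysine 27, written by Polycomb repressive complex 2 (Ezh1 or Ezh2 with Eed and Suz12), and much of it lies at the nuclear lamina or around the nucleolus. In developing B cells, loop extrusion by cohesin brings distant immunoglobulin gene segments together for recombination, and Ki-67 is known for coating mitotic chromosomes and for its part in placing heterochromatin around nucleoli.

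One peak list per library was available, with no read counts. Overlapping entries were joined, and a joined peak was counted for a gene where it overlapped the gene body or the 10 kb on either side. A peak within 1 kb of either end of the gene was a gene-end peak, and the rest were other peaks. The lists held between 77044 and 206148 entries, or 54387 to 88946 joined peaks, and the longest belonged to the pre-pro-B stage. Genotypes were therefore compared within a stage on the lists as deposited, and stages on the 40000 joined peaks of highest -log10 q in each library. The rank of a gene is the place of its strongest gene-end peak among those 40000, where 1 is the strongest, and a gene with none takes the place after the last. A rank orders the peaks of a library and is not a level of accessibility. Differences were tested with exact permutation tests that kept stage or genotype as strata, two-sided, with Benjamini-Hochberg adjustment over all genes tested, and a member was called at an adjusted p of 0.05. The smallest p these designs allow is 5.83e-06 for genotype and 0.000408 for a step between stages.

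The libraries differed in ways that move with the groups. The background coverage, solved from the fold enrichment and p of weak peaks, was 4.29 ± 1.26 in the WT pre-pro-B group and 3.25 ± 0.987 in its Mki67-/- counterpart (SD, n = 4). The pro-B pair had 3.15 ± 0.21 and 2.92 ± 0.679, and the small pre-B pair 3.12 ± 0.595 and 2.58 ± 0.514. The lowest value, 1.86, was shared by replicate 4 of the Mki67-/- pre-pro-B group and replicate 1 of the Mki67-/- small pre-B group, and WT small pre-B replicate 1 held 85621 joined peaks where the other 3 of its group held 63332 to 69941. Results below are given without these 3 libraries where that ends a call. The Mki67 gene itself (chr7:135689784-135716450) had a gene-end peak in all 24 libraries, with 2 to 7 peaks in WT and 1 to 7 in Mki67-/- libraries, so peak lists do not check the genotype labels. Of the cell type markers, the summed peaks of 9 early B genes ran from 22 to 30 in pre-pro-B, from 64 to 71 in pro-B and from 53 to 63 in small pre-B libraries, with Vpreb2 at 0 in every pre-pro-B library. The summed peaks of 8 T and NK cell genes ran from 21 to 26, from 10 to 13 and from 8 to 11 at the 3 stages, with Cd3e, Cd8a and Ncr1 at 0 after pre-pro-B. Those of 4 multipotent progenitor genes ran from 20 to 25, from 16 to 20 and from 10 to 15, and in pre-pro-B from 24 to 25 in WT against 20 to 22 in Mki67-/-. Those of 6 myeloid genes ran from 15 to 20, from 8 to 11 and from 11 to 14, and those of 4 plasmacytoid dendritic cell genes from 18 to 24, from 23 to 24 and from 27 to 32. Those of 5 small pre-B genes ran from 14 to 18, from 15 to 20 and from 17 to 25, of 5 erythroid genes from 9 to 11, from 6 to 10 and from 6 to 8 (Gata1 at 0 throughout), and of 3 platelet genes from 2 to 4, from 5 to 8 and from 5 to 6. The part of other cells, of coverage and of library quality in the results below was not tested, and fewer cells of a type cannot be told apart from weaker signal per cell in bulk lists.

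Nearly every member had open chromatin at a gene end at all 3 stages. A gene-end peak was present in all 24 deposited lists for 43 of the 49 members, or 87.8%, against 51.5% of all 21631 genes. No gene-end peak was found in any library for 4 members: Rad21, the cohesin subunit that closes the ring, Stag1, Nipbl and the de novo DNA methyltransferase Dnmt3a. For Stag1 the transcription start listed by RefSeq lies 45739 bp inside the gene record and held a peak in all 24 libraries, and for Dnmt3a starts 5421 bp and 22699 bp inside held one in 23 and 24 libraries. No start is listed for Rad21 or Nipbl, so a peak at their starts could not be looked for. Both held other peaks among the 40000 strongest in every library, 1 to 3 at Rad21 and 7 to 10 at Nipbl. The remaining exceptions were Wapl and the H3K9 methyltransferase Ehmt2, each with a gene-end peak in 23 of 24 lists. The start listed for Wapl lies 1549 bp inside the gene record and held a peak of the 40000 strongest in all 24 libraries. Ehmt2 kept one among the 40000 strongest peaks in 16 libraries, and Satb1, an organiser of chromatin loops in lymphocytes, in 23. In all, 42 members had a gene-end peak among the 40000 in every library, and the median of their median ranks was 4563, against 6434 for the 9799 genes of the genome with one in every library.

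The windows of the 49 genes held 467 of the 159336 regions formed by joining the peaks of all libraries. A peak was present in all 24 libraries in 24% of them, against 16.8% of all regions. By position, 75 regions lay at a gene end of the member and 64% of these were open in all 24 libraries. A further 11 lay at a start listed inside a member, 90.9% of them open throughout, and 30 at the end of another gene, 53.3% of them open throughout. The other 351 regions lay at neither, and 10.8% of these were open in all 24. The window of 34 members reached another gene, so some of their peaks may belong to a neighbour. No exon annotation was used, so regions are placed only as inside or outside the gene record.

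**Figure D1:**
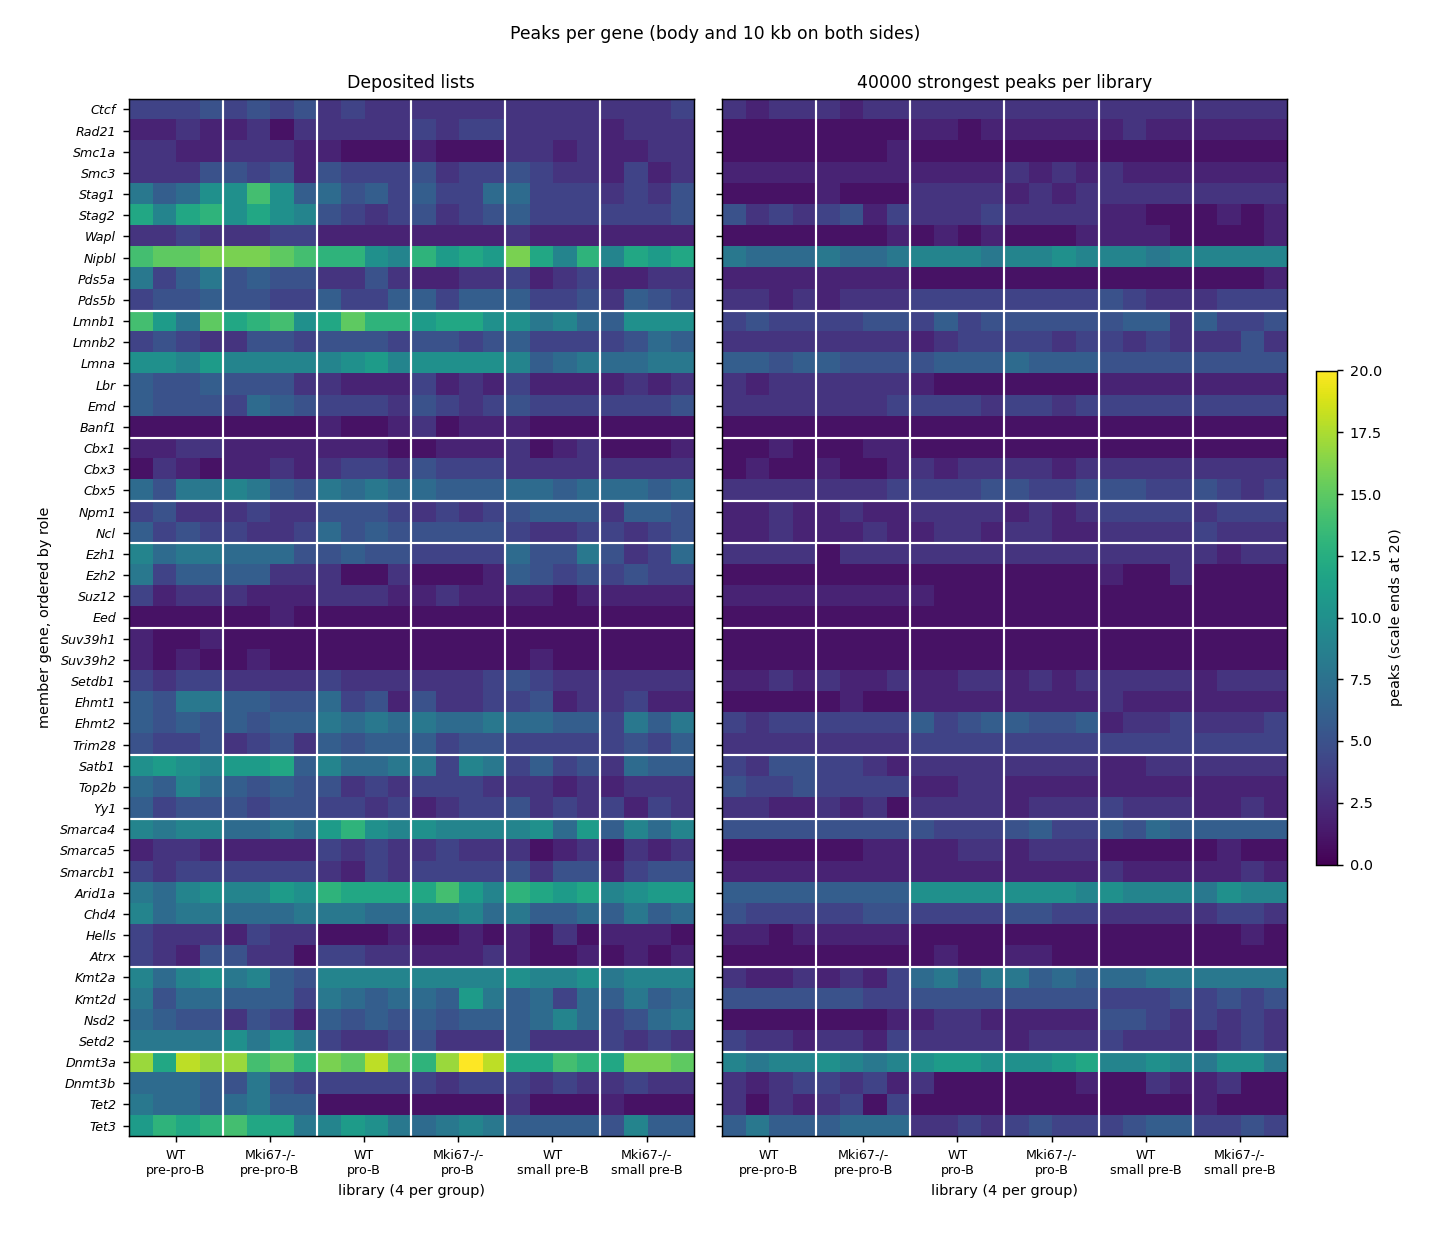
Joined peaks per member gene (rows, 49 genes by role) in each of the 24 libraries (columns, by stage and genotype), in the deposited lists and among the 40000 strongest peaks; colour gives the number of peaks up to 20. Rows differ far more than columns, and the deposited lists are fullest in the pre-pro-B columns.

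Summed over the 49 members, the deposited lists held 233 to 307 peaks per pre-pro-B library, 224 to 267 per pro-B library and 182 to 259 per small pre-B library. The WT and Mki67-/- means were 292 ± 20.7 and 272 ± 26.4 at the first stage, 248 ± 15.1 and 238 ± 9.95 at the second and 228 ± 22.7 and 216 ± 24.2 at the last (SD, n = 4). The Mki67-/- mean was lower at each stage, by no more than the larger SD of the pair. Among the 40000 strongest peaks the order of the stages changed, with 139 ± 4.66, 153 ± 2.67 and 151 ± 3.58 peaks per library (SD, n = 8). The number of distinct regions that these peaks occupied was nearly level at 137, 138 and 134 per library. The difference lies in how finely 1 open region was divided: a region held more than 1 peak often enough to add at least 0.5 peaks per library in 0 members at pre-pro-B, in 16 at pro-B and in 15 at small pre-B. The peaks in member windows were also narrower at the later stages, with a median width of 873 ± 89.9, 581 ± 42.6 and 533 ± 25.9 bp, as were those of the whole lists at 742 ± 68.6, 493 ± 29.9 and 433 ± 31.1 bp (SD, n = 8). A rise in the peak counts of members between stages is therefore given with the gain or loss of whole regions.

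The promoters of 7 members are shown because of how their gene-end peaks changed place in the results below. Among called members with a listed start within 1 kb of a gene end, Ehmt1, Setd2 and Lbr moved earlier most from pre-pro-B to pro-B and Banf1, Eed and Tet2 moved later most (Nsd2 and Wapl, which moved as far, have no such start), and Dnmt3b was the 1 member called by genotype. Each line holds the 250 bases before the start listed by RefSeq on GRCm38.p6, the assembly that mm10 carries, read 5' to 3' on the strand of the gene. Capitals mark matches to a motif searched on both strands.
Ehmt1 promoter (chr2:24919610-24919859, minus strand): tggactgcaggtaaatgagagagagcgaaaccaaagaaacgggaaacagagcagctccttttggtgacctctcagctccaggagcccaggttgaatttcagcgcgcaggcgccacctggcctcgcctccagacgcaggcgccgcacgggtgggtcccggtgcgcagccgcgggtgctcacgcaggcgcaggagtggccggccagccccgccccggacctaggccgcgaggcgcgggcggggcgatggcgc
Setd2 promoter (chr9:110532347-110532596, plus strand): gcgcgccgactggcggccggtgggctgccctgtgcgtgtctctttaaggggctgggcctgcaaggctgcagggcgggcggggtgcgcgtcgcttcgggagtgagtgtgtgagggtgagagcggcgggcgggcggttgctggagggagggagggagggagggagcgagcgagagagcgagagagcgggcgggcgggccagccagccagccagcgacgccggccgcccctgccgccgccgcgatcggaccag
Lbr promoter (chr1:181842402-181842651, minus strand): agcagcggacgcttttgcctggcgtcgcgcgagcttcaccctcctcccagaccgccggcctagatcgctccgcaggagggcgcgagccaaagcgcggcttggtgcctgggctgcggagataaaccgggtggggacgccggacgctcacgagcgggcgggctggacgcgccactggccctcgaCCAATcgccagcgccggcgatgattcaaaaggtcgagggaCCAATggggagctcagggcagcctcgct
Banf1 promoter (chr19:5366877-5367126, minus strand): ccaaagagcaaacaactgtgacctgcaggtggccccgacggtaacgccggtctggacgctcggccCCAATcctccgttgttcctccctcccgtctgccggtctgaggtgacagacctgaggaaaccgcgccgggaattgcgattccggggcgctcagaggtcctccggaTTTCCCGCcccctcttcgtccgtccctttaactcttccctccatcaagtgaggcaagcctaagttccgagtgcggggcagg
Eed promoter (chr7:89980977-89981226, minus strand): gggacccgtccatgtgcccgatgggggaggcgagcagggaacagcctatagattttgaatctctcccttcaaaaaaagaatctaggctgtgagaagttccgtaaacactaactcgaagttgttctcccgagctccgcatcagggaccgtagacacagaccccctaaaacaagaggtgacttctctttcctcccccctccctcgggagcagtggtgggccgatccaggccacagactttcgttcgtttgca
Tet2 promoter (chr3:133544391-133544640, minus strand): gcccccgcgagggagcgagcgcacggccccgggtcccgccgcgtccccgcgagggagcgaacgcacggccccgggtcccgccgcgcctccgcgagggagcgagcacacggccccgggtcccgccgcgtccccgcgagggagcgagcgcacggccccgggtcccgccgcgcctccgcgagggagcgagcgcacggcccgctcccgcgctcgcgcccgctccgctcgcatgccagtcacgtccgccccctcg
Dnmt3b promoter (chr2:153649199-153649448, plus strand): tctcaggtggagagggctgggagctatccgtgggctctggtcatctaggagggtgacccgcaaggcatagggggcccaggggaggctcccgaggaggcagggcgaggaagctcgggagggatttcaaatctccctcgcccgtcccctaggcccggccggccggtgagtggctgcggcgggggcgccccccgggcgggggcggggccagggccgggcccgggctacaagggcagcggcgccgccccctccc
The motifs were CCAAT (bound by NFY), CCGGAAGT (ETS factors), CACGTG (E-box), TTTGGCGC and TTTCCCGC (E2F), and the first 9 letters of longer motifs of YY1 (AAGATGGCG), NRF1 (GCGCATGCG) and ZNF143 (ACTACAATT). Lbr, whose product is a lamina receptor that binds HP1, held CCAAT at -68 to -64 and at -28 to -24 from the start. Banf1, which encodes the DNA-bridging protein of the nuclear envelope BAF, held CCAAT at -185 to -181 and TTTCCCGC at -81 to -74, and the other 5 promoters shown held no match. A listed start was found for 43 members, all but Rad21, Stag2, Nipbl, Lmnb1, Npm1 and Nsd2. CCAAT was present in 15 of the 43 (34.9%) and in 33.8% of the 32851 promoters searched. TTTGGCGC was present in 3 (6.98%; Pds5a, Cbx3 and the nucleolin gene Ncl) against 0.417%, and TTTCCCGC in 4 (9.3%; Stag1, Suz12, Banf1 and the remodeller gene Hells) against 0.895%. CACGTG was present in 2 (4.65%) against 6.02%. The other 4 motifs were in 0 of the 43 and in 0.606% (YY1), 2.88% (ETS), 1.45% (NRF1) and 0.365% (ZNF143) of all promoters. Base composition differed as well, with a median GC content of 67.6% in the members, 55.6% in protein-coding genes and 52.4% in all promoters, and a median observed over expected CpG of 0.87, 0.54 and 0.37. A match is a run of letters and not a measured binding site.

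From pre-pro-B to pro-B, the first step into the committed B lineage, the number of peaks rose in 14 of the 49 members and fell in 8. Among the 40000 strongest, the most peaks were gained at Kmt2a, which encodes the H3K4 methyltransferase MLL1, and at Arid1a, the DNA-binding subunit of the BAF remodeller, and the most were lost at Tet3, a dioxygenase that oxidises methylcytosine, and at Top2b, the topoisomerase found at loop anchors. Among all 16218 genes tested, 24.8% rose and 21.1% fell, so 14 and 8 of 49 are close to the background and the count is not a result about these genes. The median difference over the members was 0.25 peaks and over all genes 0.

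Kmt2a held 2, 2.5 and 4 peaks (lowest, median and highest of 8 libraries) in pre-pro-B and 6, 7 and 8 in pro-B, a difference of 4.38 (permutation test, adjusted p = 0.00164). Arid1a held 6 in every pre-pro-B library and 9, 10 and 10 in pro-B, a difference of 3.88 with the same adjusted p. At both genes the stages did not overlap, and the difference was present in both genotypes (4.75 and 4 for Kmt2a, 4 and 3.75 for Arid1a, in WT and Mki67-/-). On the deposited lists Kmt2a held 5, 8.5 and 10 peaks in pre-pro-B and 9 in every pro-B library, so the stages overlapped and the call was lost (difference 1.12, permutation test, adjusted p = 0.241), while Arid1a kept its call (2.75, 0.0147). Tet3 went from 6, 6.5 and 8 peaks to 3, 4 and 5, and Top2b from 4, 4 and 5 to 2, 2 and 3, differences of -2.88 and -2 (permutation test, adjusted p = 0.00164 for each). Their stages did not overlap either, and on the deposited lists both kept their calls (-3.12 and -2.62, adjusted p = 0.0117 and 0.00207), while with the 20000 strongest peaks Top2b did not (-0.375, 0.547). The cohesin cofactors Pds5a and Pds5b, close paralogs, went opposite ways: Pds5a had 2 peaks in every pre-pro-B and 1 in every pro-B library, and Pds5b had 2, 3 and 3 against 4 in every pro-B library (permutation test, adjusted p = 0.00164 for each). Neither difference held on every list: Pds5b was not called on the deposited lists (0.5, 0.571), and Pds5a turned to 0.375 with the 20000 strongest (0.547).

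By role, the CTCF and cohesin group had 4 members that rose (Rad21, Stag1, Nipbl and Pds5b, by 0.875 to 1.62) and 1 that fell (Pds5a) of 10. Ctcf, the 2 Smc genes of the ring, Stag2 and Wapl did not pass the test. The direction at 2 of the 4 turned with the list: Nipbl fell by 3.62 on the deposited lists (permutation test, adjusted p = 0.00207) and by 2 with the 20000 strongest (0.0037), and Stag1 fell by 3.5 on the deposited lists (0.0204). Of the 6 lamina and envelope genes, Lbr fell from 2, 3 and 3 peaks to 1, 1 and 2 (difference -1.75, permutation test, adjusted p = 0.00308) and none rose. Of the 3 HP1 genes, Cbx3 (1.38) and Cbx5 (1.25) rose and Cbx1 did not pass, with Cbx5 at -0.125 on the deposited lists and -0.25 with the 20000 strongest (adjusted p = 1 and 0.968), and neither nucleolar gene, Npm1 nor Ncl, passed. Of the 4 Polycomb repressive complex 2 genes, Suz12, its scaffold subunit, fell by 0.875. Among the 6 H3K9 genes, the methyltransferase pair Ehmt1 (0.875) and Ehmt2 (1.5) rose with Trim28 (1), the corepressor that recruits Setdb1, while Setdb1, Suv39h1 and Suv39h2 did not pass. Ehmt1 fell by 2 on the deposited lists (permutation test, adjusted p = 0.0403), and Ehmt2 was at -0.25 both with the 20000 strongest and in the gene body alone (adjusted p = 1 for each). The 3 organisers had 1 faller, Top2b. Of the 7 remodellers, Arid1a and Smarca5 (1.38), the ISWI ATPase, rose and Hells, a helicase that supports DNA methylation, fell by 0.875. Of the 4 other histone methyltransferases, Kmt2a and the H3K36 enzyme Nsd2 (1.12) rose. The 4 DNA methylation genes split, with Dnmt3a higher by 1.75 and Dnmt3b, Tet2 and Tet3 lower by 1.75, 1.62 and 2.88 peaks. The range of the adjusted p over these called members was 0.00164 to 0.0237.

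**Figure D2:**
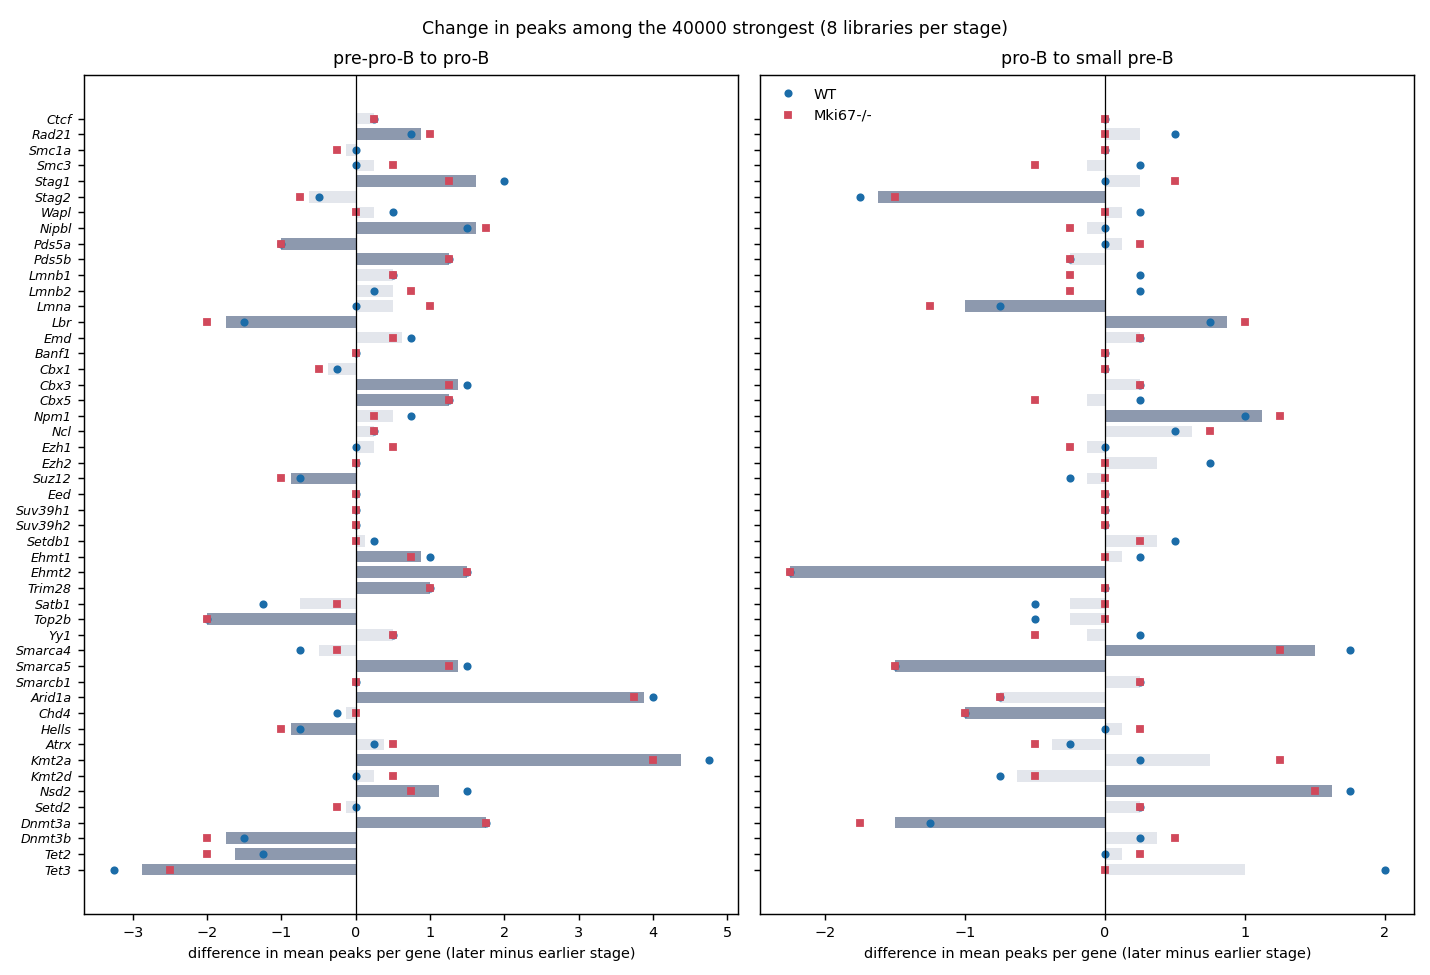
Mean difference in peaks per member (bars, dark where called) at the 2 steps between stages, among the 40000 strongest peaks, with the WT difference as a circle and the Mki67-/- difference as a square. Kmt2a and Arid1a stand out on the gaining side and Tet3 on the losing side of the first step, with both genotypes on the same side.

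The split depends on the list. On the deposited lists, which are longer at pre-pro-B, 8 members rose and 20 fell at this step, against 21.2% and 25.6% of all genes, and 13 of the 22 calls kept their direction and their call. Lbr, Trim28, Arid1a and Tet3 were the 4 members called the same way on the deposited lists and with both the 40000 and the 20000 strongest. By other measures 3 of the 4 turned without a call, Lbr in the gene body alone (0.125) and Trim28 (-350 bp) and Arid1a (-91.6 bp) in covered length. In summed length covered by peaks 3 rose and 34 fell, against 11.9% and 66.7% of all genes. The fall at the 8 members named above was matched by a lost region in 8 of 8, and the rise by a gained region in 11 of 14. The 3 without a gained region were Rad21, Cbx3 and Trim28, whose extra peaks lay in regions already open at pre-pro-B. Nipbl, counted among the 11, gained 2 regions and lost 2. Its mean number of occupied regions among the 40000 went from 7.38 to 7.12 per library, while its peaks went from 7.38 to 9. The rise at Nipbl was therefore in peaks per region and not in the number of regions.

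Gene-end peaks rose in 5 of the 45 members tested (Cbx3, Trim28, Yy1, Arid1a and Kmt2a) and fell in 2 (Pds5a and Ehmt2), against 10.8% and 6.18% of 12523 genes. Arid1a had 1 gene-end peak in every pre-pro-B library and 2, 3 and 3 in pro-B (permutation test, adjusted p = 0.00422). Kmt2a and Trim28 went from 1 in every library to 2 in every library, with the same adjusted p, and Yy1, a zinc finger factor found at enhancer loops, from 1 to 1, 2 and 2 (0.0139). Cbx3 rose by 1.38 (0.0165), Ehmt2 went from 1, 2 and 2 to 0, 1 and 1 (0.0123) and Pds5a from 1, 2 and 2 to 1 (0.0139). No member was called within 500 bp of a gene end. Of the members' gene-end regions that varied at this step, 1 of 9 was gained, in Arid1a, and 4 were lost. Cbx3, Trim28 and Yy1 gained 0 regions, and their peaks beyond 1 per region went from 0.375, 0 and 0 to 1.75, 1 and 0.875 per library, as Kmt2a went from 0 to 1. Other peaks rose in 12 and fell in 7 of the 39 members tested, against 26% and 25% of 13673 genes. Ehmt2 moved both ways: its other peaks rose from 2 in every library to 4, 5 and 5 (difference 2.62, permutation test, adjusted p = 0.00145) while its gene-end peaks fell. With the 20000 strongest, the difference in Ehmt2 other peaks was -0.25 (adjusted p = 0.894). An adjusted p of 0.00145 was also found for Kmt2a (1, 1.5 and 3 to 4, 5 and 6), Arid1a (5 to 7 in every library), Pds5b (1, 2 and 2 to 3), Top2b (3, 3 and 4 to 1, 1 and 2) and Tet3 (5, 5.5 and 7 to 2, 3 and 4).

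As regions, 30 of the 104 member regions that varied between these stages were gained at pro-B and 25 were lost, against 23.8% and 26.3% of 48320 regions. The gained regions lay in 19 members and the lost in 17, with 7 members in both sets (Nipbl, Lmnb1, Ehmt2, Smarca4, Setd2, Dnmt3a and Tet3), and 20 members had neither. The strongest loss was a pair of regions inside Tet3. The region chr6:83427689-83429003, 28862 bp from the nearest gene end, was among the 40000 in 8 of 8 pre-pro-B libraries at a mean rank of 6189, and in 0 of 8 at pro-B and at small pre-B. The region chr6:83381461-83382303 had a mean rank of 9439 in 8 of 8 and was then absent, and in the deposited lists it was found in 8, 0 and 0 libraries at the 3 stages. Further losses of the same kind were at the end of Chd4, the ATPase of the NuRD complex (chr6:125129524-125130820, mean rank 11194, deposited lists 8, 0 and 0), inside the lamin gene Lmnb1 (chr18:56732680-56733498, 11366) and at 2 places inside Smarca4, the BAF ATPase BRG1 (chr9:21698335-21699494, 14830, and chr9:21627235-21627992, 16050). The adjusted p was 0.00124 for each of these 6 (permutation test on presence).

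The strongest gain lay beside Dnmt3a. The region chr12:3917669-3918372, 3577 bp outside the gene, was among the 40000 in 0 of 8 pre-pro-B libraries and in 8 of 8 pro-B libraries at ranks of 350 to 1873, mean 880, and in 7 of 8 small pre-B libraries at a mean rank of 23315. It was present in all 24 deposited lists, so its place in the lists changed and not its presence. The small pre-B mean counts the library without it among the 40000 at the place after the last. Smarca4 gained chr9:21625103-21626350 at a mean rank of 2450, which stayed at 3265 in small pre-B and lies beside the lost region that starts at 21627235. Pds5b gained chr5:150686431-150686930 (12081, deposited lists 0, 8 and 8) and Ehmt1 gained chr2:24910445-24910998 (17685, deposited lists 8, 8 and 8), both inside the gene. Dnmt3a gained a second region inside the gene, chr12:3868458-3868947 (12447), that was in 1, 8 and 1 libraries at the 3 stages. Lmnb1 gained chr18:56760723-56761411 (18331), which lies at an end of the neighbour Marchf3 and was in 0, 8 and 0 libraries. The adjusted p was 0.00124 to 0.00493 for these 6 gained regions (permutation test on presence). By the same measure (at least 7 of 8 libraries at 1 stage and at most 1 of 8 at the next), 22 member regions were lost and 23 gained at this step.

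The gene-end rank changed at more members than the counts did, and this was so among all genes as well. It moved earlier, toward the strongest peaks, in 16 of 45 members and later in 9, against 31.8% and 41.1% of 12523 genes, with a median difference of -277 over the members and of 382 over all genes. Ehmt1, one partner of the H3K9 dimethylating complex GLP and G9a, moved from 9191, 15012 and 21791 (lowest, median and highest of 8) to 4641, 5818 and 7233, a difference of -9358 (permutation test, adjusted p = 0.000954). Setd2, the H3K36 trimethylase, moved from 6430, 8652 and 10906 to 1546, 1782 and 3267, and Lbr from 5506, 9189 and 10497 to 1688, 2581 and 3729 (differences of -6694 and -5614, with the same adjusted p). None of the 3 overlapped between the stages, and the shift was in both genotypes (-9789 and -8927, -8243 and -5145, -6748 and -4479 in WT and Mki67-/-).

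Banf1 moved the other way, from 193, 902 and 2735 to 6454, 7592 and 8833, and Eed, the subunit that reads H3K27 methylation, from 1188, 3471 and 7881 to 5150, 8694 and 12199 (differences of 6395 and 5214, permutation test, adjusted p = 0.000954 for each). The stages did not overlap at Banf1 and did at Eed. Wapl moved from 1000, 1566 and 2837 to a lowest of 3202 and a median of 4054. It had no gene-end peak in Mki67-/- pro-B replicate 2, which takes the last place, though a peak lay at its listed start, 1549 bp inside the gene. Its difference of 6740 was 2212 without that library (permutation test, adjusted p = 0.0019), and with that library kept, leaving out any 1 Mki67-/- pre-pro-B library ended the call (0.0887 to 0.124).

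By role, the lamina and envelope genes moved in opposite directions at this step: Lmnb2 (-943), Lmna (-936), Lbr and the emerin gene Emd (-4112) earlier, and Banf1 later. Cohesin genes did so too, with Stag2 (-4160) and Pds5a (-3711) earlier and Wapl later. Of the HP1 genes Cbx3 (-1099) and Cbx5 (-916) moved earlier and Cbx1 later (2247), and nucleolin (Ncl, -1514) moved earlier. The Polycomb genes Suz12 (2057) and Eed moved later and Ezh2 (-534), the catalytic subunit, earlier. Of the H3K9 genes Suv39h1 (-1864), Suv39h2 (-1986) and Ehmt1 moved earlier and Trim28 later (3454). Smarca4 (1359), the core BAF subunit Smarcb1 (3816) and Tet2 (4014) moved later, and Yy1 (-1291), Nsd2 (-8924) and Setd2 earlier. The adjusted p of these members lay between 0.000954 and 0.0425 (permutation test). Without the 3 libraries named above Yy1 (-1165, 0.0719), Pds5a (-3704, 0.0519) and Wapl (6885, 0.0887) lost their calls. The difference was uneven between genotypes at Pds5a (-7038 in WT, -384 in Mki67-/-), Nsd2 (-13986 and -3861) and Yy1 (-2605 and 22.2), and the difference between genotypes in these shifts was not tested for ranks.

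**Figure D3:**
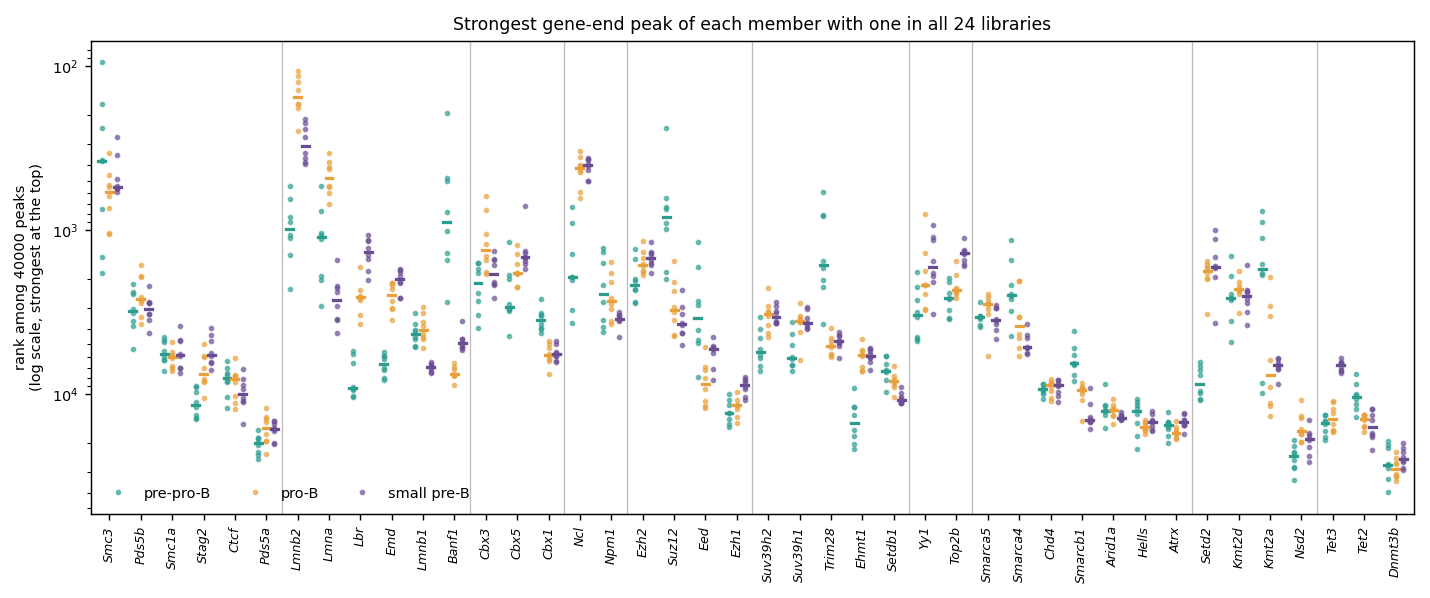
Rank of the strongest gene-end peak among 40000 (log axis, 1 is the strongest) for the 42 members with such a peak in every library, with dots for the 8 libraries of each stage and bars for their medians. Ehmt1, Setd2 and Lbr shift to stronger ranks after pre-pro-B, Banf1 and Eed to weaker ones.

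From pro-B to small pre-B, when cells leave the cycle and rearrange the light chain genes, fewer members changed: peaks rose in 4 of 49 (Nsd2, Npm1, Smarca4 and Lbr) and fell in 6 (Stag2, Ehmt2, Smarca5, Lmna, Chd4 and Dnmt3a), against 11.4% and 11.9% of 15744 genes. This step shares the 8 pro-B libraries with the first. Nsd2 had 2, 2 and 3 peaks at pro-B and 3, 4 and 5 at small pre-B (difference 1.62), and the nucleophosmin gene Npm1 had 2, 3 and 3 against 3, 4 and 4 (difference 1.12; permutation test, adjusted p = 0.0111 for each). The rise was matched by a gained region in 3 of 4 members, all but Npm1, and the fall by a lost region in 6 of 6. At Nsd2 the occupied regions went from 2.25 to 3.12 per library while the peaks went from 2.25 to 3.88. The cohesin subunit gene Stag2 went from 3, 3 and 4 peaks to 1, 1.5 and 2 (difference -1.62, adjusted p = 0.00467), with no overlap. On the deposited lists Stag2 turned, with 3 to 5 peaks at pro-B and 4 to 6 at small pre-B (difference 0.25, adjusted p = 1). Ehmt2 went from 4, 5.5 and 6 to 2, 3 and 4 and Smarca5 from 2, 3 and 3 to 1, 1 and 2 (differences of -2.25 and -1.5, adjusted p = 0.00831 for each), so at both genes the counts came back near or below those of pre-pro-B. Smaller changes were those of Smarca4 (1.5), Lbr (0.875), Lmna (-1), Chd4 (-1) and Dnmt3a (-1.5), with adjusted p between 0.0129 and 0.0355 (permutation tests). On the deposited lists 2 members rose and 6 fell, against 6.11% and 16.6% of all genes, and 1 of the 10 calls was kept, that of Lmna. Smarca4 turned there (-1.5, permutation test, adjusted p = 0.203), as Ehmt2 did with the 20000 strongest (0.625, 0.106). Dnmt3a lost its call without the 3 libraries named above (-1.29, 0.085).

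No member was called for gene-end peaks at this step, against 2.35% of 12149 genes higher and 3.29% lower, and 1 of the 45 members had an unadjusted p under 0.05: Nsd2, with 1 in every pro-B library and 1, 2 and 3 at small pre-B, a difference of 0.75 (permutation test, p = 0.0306, adjusted p = 0.257). Cbx5 (0.75), Smarca5 (-0.5), Ehmt2 (-0.5), Dnmt3b (0.375) and Stag2 (-0.375) followed, with adjusted p from 0.496 to 1 in the permutation test. Other peaks rose in 4 (Lbr, Npm1, Smarca4 and Nsd2) and fell in 8 (Stag2, Lmna, Cbx5, Ehmt2, Smarca5, Arid1a, Chd4 and Dnmt3a) of 36 members, against 14.2% and 14.8% of 12704 genes. Smarca5 had 1 other peak in every pro-B library and 0 in every small pre-B library (permutation test, adjusted p = 0.0039). Ehmt2 went from 4, 5 and 5 to 2, 3 and 4 and Npm1 from 1, 2 and 2 to 2, 3 and 3 (0.00949 for each), and the other 9 had adjusted p up to 0.0384.

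Regions gained at small pre-B numbered 8 and lost regions 13 of 75 in the member windows, against 12.9% and 16.8% of 37742 regions, in 8 and 10 members. Lmnb1, Arid1a and Dnmt3a had both, and 34 members had neither. The lost regions of highest rank were those that Dnmt3a (chr12:3868458-3868947) and Lmnb1 (chr18:56760723-56761411) had gained a step earlier. They were followed by chr4:133688448-133689064 in Arid1a (mean rank 21393 at pro-B), chr8:80732385-80732710 in Smarca5 (26568), chrX:42151754-42152351 in Stag2 (30240) and chr4:133759284-133759614 beside Arid1a (30416, deposited lists 0, 8 and 0). The gained regions were chr18:56722619-56723188 in Lmnb1 (mean rank 11786 at small pre-B), chr9:21627235-21627992 in Smarca4 (19360), chr6:83405724-83406056 in Tet3 (19992), chr10:80911361-80911886 in Lmnb2 (21311, deposited lists 0, 0 and 8), chr1:181828421-181829005 in Lbr (30012) and chr4:133680152-133680752 in Arid1a (32569). The adjusted p of these 12 lay between 0.00344 and 0.0106 (permutation test on presence), and 8 lost and 6 gained regions met the measure of 7 of 8 against 1 of 8.

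Ranks moved earlier in 11 of 45 members and later in 7, against 29.9% and 22.5% of 12149 genes, with a median difference of -129 over the members and of -151 over all genes. The lamins moved later together: Lmnb1 from 2944, 4073 and 5248 to 6373, 6826 and 7432, Lmna from 342, 482 and 699 to 1516, 2660 and 4259 (permutation test, adjusted p = 0.00163 for each), and Lmnb2 from 107, 155 and 250 to 210, 306 and 396 (0.00386). The stages did not overlap at Lmnb1 and Lmna. The 3 lamins are the structural filaments of the lamina, and the other called genes of that group moved earlier: Lbr by -1244 (0.00281) and Banf1 by -2665 (0.00163), to 3614, 4917 and 5404. Tet3 moved from 11131, 14202 and 17055 to 6014, 6654 and 7421 (difference -7448, adjusted p = 0.00163), with no overlap. The listed starts lie 6580 and 12164 bp from the nearest gene end at Lmna and 15530 bp at Tet3, and Lmnb1 has none. The ranks of these genes are therefore not those of a listed start. Wapl returned to 1728, 2014 and 2498, a difference of -6370 that was -1841 without Mki67-/- pro-B replicate 2 (adjusted p = 0.00193). With that library kept, leaving out any 1 Mki67-/- small pre-B library ended the call (0.21 to 0.23). Others that moved earlier were Stag2 (-1850), Ezh1 (-3050), Eed (-3182), Satb1 (-3377), Top2b (-801), Atrx (-2226), which encodes the ATPase that deposits histone H3.3 in heterochromatin, and Dnmt3b (-3929). Others that moved later were Npm1 (897), Setdb1 (2168), Ehmt2 (6052) and Smarcb1 (3516), and these 11 further members had adjusted p between 0.00281 and 0.0327 (permutation test). Among the ranked peaks, Ehmt2 had a median of 1 gene-end peak at pro-B and 0 at small pre-B, with a lowest of 0 at both stages. A library with none takes the place after the last. The Ehmt2 difference is therefore largely one of presence among the ranked peaks, and not of the place of a peak. Without the 3 libraries named above Npm1 (955, 0.0534), Ehmt2 (5918, 0.0597) and Wapl (-6308, 0.253) lost their calls.

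Over the 3 stages, 97 member regions in 49 genes were among the 40000 in at least 7 of 8 libraries at every stage, or 20.8% of 467 against 11.6% of all regions. A further 21 regions in 16 genes were present by that measure at pre-pro-B and in at most 1 of 8 libraries at the later stages, or 4.5% against 5.22%. There were 7 in 6 genes at pro-B alone (1.5% against 1.86%), 5 in 5 genes at small pre-B alone (1.07% against 1.26%) and 12 in 10 genes at both later stages (2.57% against 2.82%). These shares are near the background. For presence at the first 2 stages and absence at the last, the members had 0 regions, where 0.5% of all regions did so, and 1 was absent at pro-B alone (0.214% against 0.713%), chr9:21627235-21627992 in Smarca4. Of the others, 272 (58.2% against 58.6%) were in at most 1 of 8 libraries at each stage and 52 lay between these limits. Gene ends made up 46 of the 97 regions present throughout, 4 of the 21 at pre-pro-B alone, 1 of the 12 at the 2 later stages and 0 of the 7 and of the 5 found at 1 later stage.

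**Figure D4:**
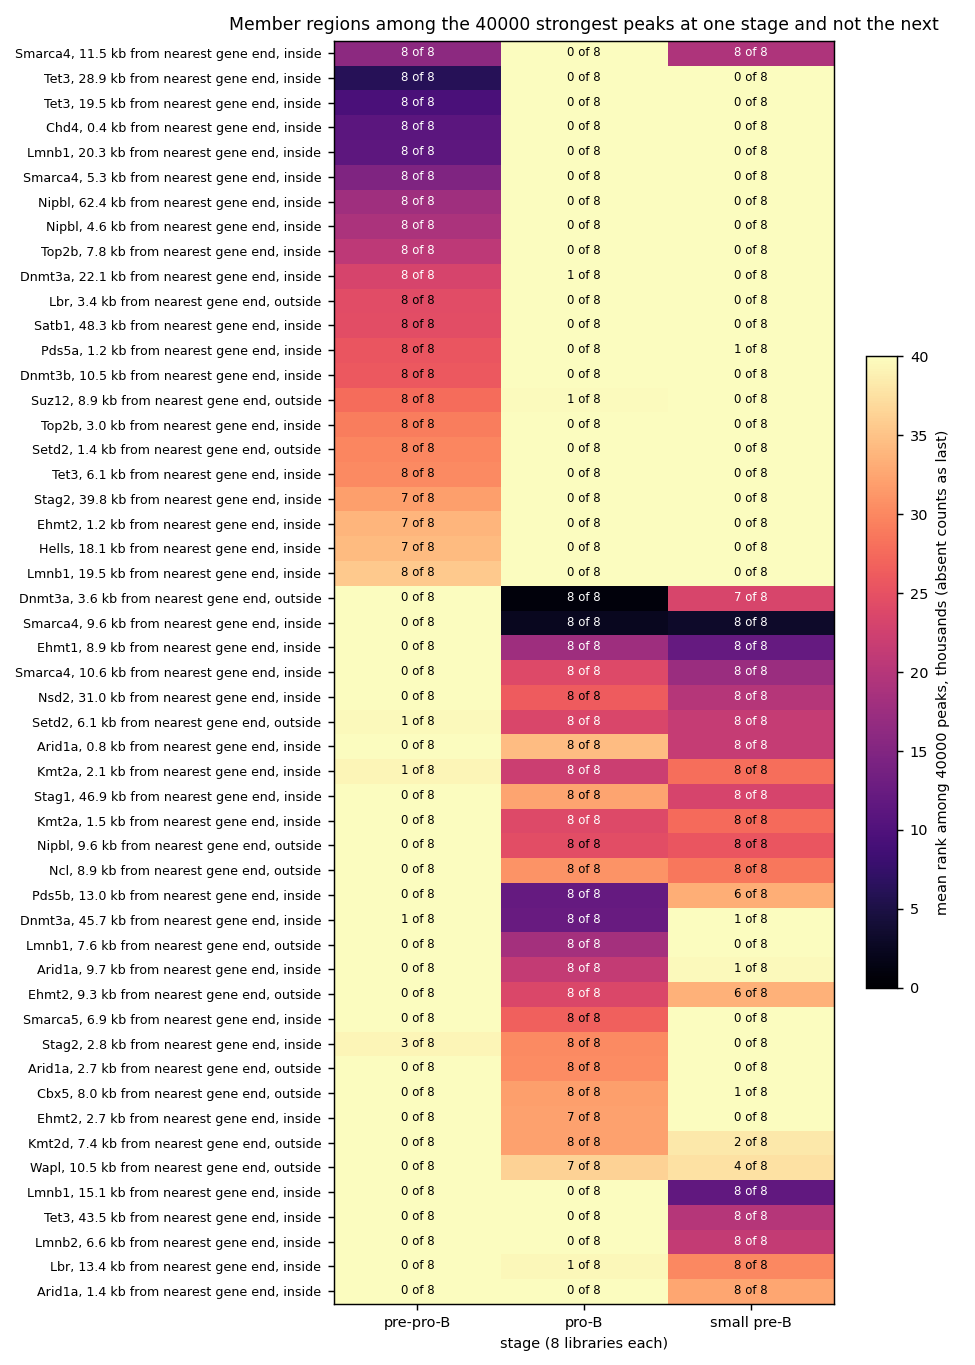
Member regions that were among the 40000 strongest peaks in at least 7 of 8 libraries of 1 stage and at most 1 of 8 of the next or the one before; colour gives the mean rank per stage and the text in each cell the number of libraries of 8. The Dnmt3a region at pro-B and the Smarca4 region gained with it have the strongest ranks, and the strongest Tet3 regions are present at pre-pro-B alone.

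Between genotypes no member was called in any count of peaks. Of the 49 members tested for peaks, 45 for gene-end peaks and 46 for other peaks, 0 passed the permutation test, as did 0% of 17598, 0% of 14384 and 0% of 16368 genes. At an unadjusted p under 0.05 there were 4, 0 and 3 members, and limma on log2(peaks + 0.5), as an alternative tool, called 0 members for peaks with 7 under that p. Of 355 member regions that varied, 0 were called (0% of 132532 regions), and 8 had an unadjusted p under 0.05. The median difference of Mki67-/- minus WT was -0.25 peaks over the members and -0.0833 over all genes, and the coverage of the Mki67-/- libraries was lower at each stage, as given above.

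The lowest p among peak counts belonged to Ezh1, the Polycomb methyltransferase that prevails in cells that do not divide. It had 5, 6.5 and 9 peaks in WT and 3, 4.5 and 7 in Mki67-/- libraries (lowest, median and highest of 12), with means of 6.5 ± 1.51 and 5.08 ± 1.51, and the ranges overlapped. The difference was -1.42 (permutation test, p = 0.00591, adjusted p = 0.679), with -1.5, -1.25 and -1.5 at the 3 stages. In pro-B the WT libraries had 5, 6, 5 and 5 peaks and the Mki67-/- libraries 4 each. Smarca4 had 7, 9 and 13 peaks in WT and 6, 8.5 and 10 in Mki67-/- libraries, a difference of -1.5 overall and at each stage (p = 0.00795, adjusted p = 0.722, permutation test). Npm1 had 3, 5 and 6 peaks against 3, 3.5 and 6 (p = 0.031), Pds5a 2, 4 and 8 against 2, 3 and 6 (p = 0.039), Ezh2 1, 4.5 and 8 against 1, 3.5 and 6 (p = 0.0626) and Nsd2 5, 6 and 9 against 2, 5 and 8 (p = 0.0648), with adjusted p from 0.894 to 1 (permutation tests). The ranges overlapped at each of these 6 genes. For gene-end peaks the lowest p was that of Kmt2d, an H3K4 methyltransferase of enhancers (1, 1 and 2 in both genotypes, mean difference 0.333, p = 0.0714, adjusted p = 1, permutation test). Cbx5 (-0.333), Nsd2 (-0.5), Yy1 (-0.25), Arid1a (-0.25) and Lmnb1 (0.333) followed, with unadjusted p from 0.194 to 0.372 in the permutation test. For other peaks Ezh1 went from 5.33 ± 1.44 to 3.92 ± 1.31 (SD, 12 libraries each; permutation test, p = 0.000927, adjusted p = 0.54) and Smarca4 differed by -1.58 (p = 0.00414, adjusted p = 0.667). Npm1 (-0.833), Pds5a (-0.833), Top2b (-0.667) and Setdb1 (-0.417) came next, with adjusted p from 0.939 to 1 in the permutation test.

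In single stages, 4 libraries against 4 cannot give a p under 0.0286, so members whose groups did not overlap were counted. For peaks, Ezh1 in pro-B was the 1 such member in any stage, lower in Mki67-/-. Among all genes the share was 0.183% higher and 0.519% lower in pre-pro-B, then 0.594% and 0.706% at pro-B, then 0.483% and 0.844% at the last stage. No difference in the genotype effect between stages was called for any member (0% of 17492, 0% of 17320 and 0% of 17093 genes for the 3 pairs of stages), and 0, 1 and 0 members had an unadjusted p under 0.05 (permutation tests). Among regions, 1 in Chd4 (chr6:125110796-125111264) was in all 4 WT and 0 of 4 Mki67-/- pre-pro-B lists, with background shares of 0.439% for WT alone and 0.0741% for Mki67-/- alone. In pro-B this was 1 region in Atrx (chrX:105921478-105921720), present in WT alone, with background shares of 0.718% and 0.67%. In small pre-B there were 2 in Arid1a, chr4:133752623-133753068 in WT alone and chr4:133688448-133689064 in Mki67-/- alone, with 0.598% and 0.825%. The latter, a region lost at small pre-B above, was in 0 of 8 pre-pro-B and 8 of 8 pro-B lists of both genotypes and then in 0 of 4 WT and 4 of 4 Mki67-/- small pre-B lists.

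The gene-end rank gave the 1 call by genotype. Dnmt3b, a de novo DNA methyltransferase, lay later in the list in Mki67-/- than in WT libraries, and 1 of 45 members later and 0 earlier compare with 0.653% and 1.27% of 12717 genes. In pre-pro-B its ranks were 20446, 33057, 21278 and 19390 in WT replicates 1 to 4 and 27320, 28123, 26707 and 39694 in Mki67-/-. In pro-B they were 26266, 24442, 26606 and 22730 against 32033, 31877, 34206 and 30674, and in small pre-B 19824, 24300, 22625 and 21483 against 28213, 29244, 25773 and 25941. The genotypes did not overlap at the 2 later stages, and overlapped in pre-pro-B through WT replicate 2, whose background coverage of 2.52 was the lowest of its group. The library of lowest coverage had the latest rank in both pre-pro-B groups, the earliest in WT pro-B (2.85) and neither in the remaining groups. The part of coverage in these ranks was not tested. The means were 23537 ± 3817 and 29984 ± 4039 (SD, 12 libraries each), the difference 6446 (6918, 7186 and 5235 at the 3 stages), and the permutation test gave p = 0.000327 and an adjusted p of 0.0327. The call was lost without the 3 libraries named above (difference 5070, adjusted p = 0.1). It was also lost without WT pre-pro-B replicate 1 (0.0544), 3 (0.0623) or 4 (0.0575) or Mki67-/- pre-pro-B replicate 4 (0.0594), and with libraries split by their entries on chromosome Y as a further stratum (difference 6406, adjusted p = 0.0501). The Dnmt3b gene-end peak lay in the weaker part of the list, outside the 20000 strongest peaks in most libraries, so its rank was not tested among those.

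Eed lay at 1188, 5128 and 7995 in WT and at 2714, 7457 and 12199 in Mki67-/- libraries (lowest, median and highest), with overlapping ranges. Eed (4926 ± 2005 in WT, 7409 ± 3276 in Mki67-/-, difference 2484) and Satb1 (15812 ± 2399, 20247 ± 6919, difference 4434) came next and were not called (permutation test, adjusted p = 0.0583 and 0.0679). Satb1 had no gene-end peak among the 40000 in Mki67-/- pre-pro-B replicate 4, 1 of the 2 libraries of lowest coverage. Without it the Mki67-/- mean was 18451 ± 3176 (SD, n = 11) and the mean of the 3 stage differences 2779. Lmna (-692), Lbr (-1232) and Setd2 (-1028) had unadjusted p of 0.00956, 0.0111 and 0.0309 in the other direction (permutation test, adjusted p 0.143 to 0.224). Within pro-B the genotypes did not overlap, with Mki67-/- later, in 8 of 45 members (Stag2, Pds5a, Suz12, Eed, Smarca4, Kmt2a, Nsd2 and Dnmt3b), against 13.9% of all genes later and 5.98% earlier, and in 0 members with Mki67-/- earlier. Within pre-pro-B there were 0 later and 2 earlier (Arid1a and Setd2), against 1.3% and 1.81%. Within small pre-B, of 44 members, Satb1 and Dnmt3b were later and Lmna, Suv39h1 and Smarca5 earlier, against 4.55% and 5.49%. The count of 8 in pro-B is near the background, and Dnmt3b was in the later set at both of the last stages.

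**Figure D5:**
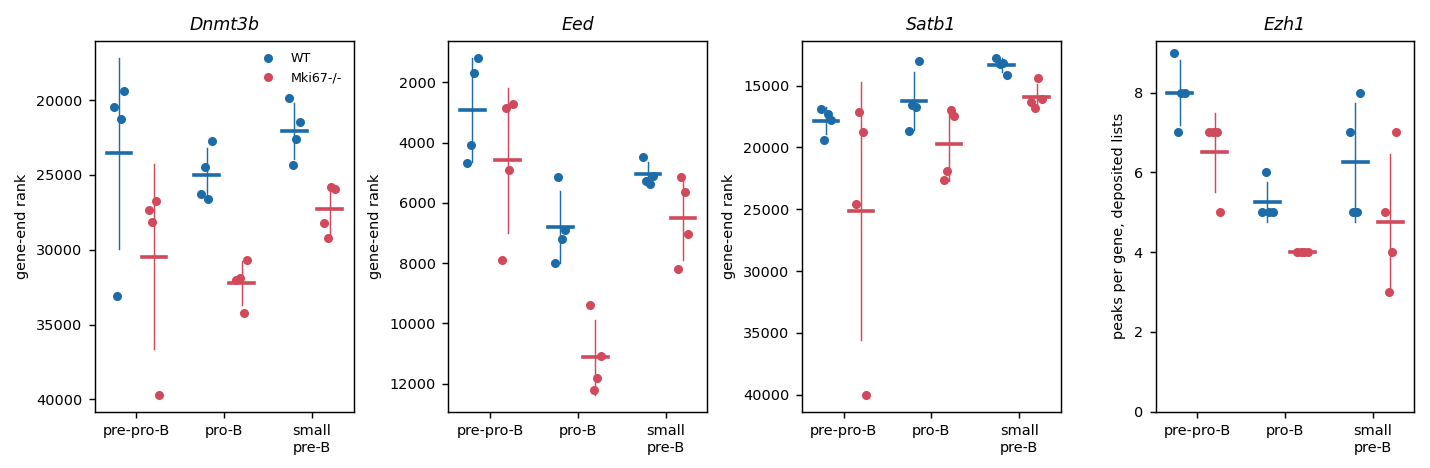
Values of each library for Ezh1 (deposited peaks) and for Dnmt3b, Eed and Satb1 (gene-end rank among 40000, with the strongest at the top) by stage and genotype; bars give the mean and thin lines the SD of 4 libraries. The Mki67-/- points of Dnmt3b lie below the WT points, at weaker ranks, at the 2 later stages. Those of Ezh1 lie below the WT points, at fewer peaks, in pro-B.

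Of 83 other genes of the same complexes or of related chromatin roles, all matched, 0 were called by genotype in peaks (permutation test). The 83 include Mki67 itself, and 3 of the 83 had an unadjusted p under 0.05. The lowest in the permutation test were the BAF subunit gene Smarcc2 (difference 1, p = 0.0169, adjusted p = 0.854) and the remodeller gene Chd8 (-1.33, p = 0.0268), followed by the chromatin protein gene Hmgb1 (-0.833, p = 0.0406) and the remodeller gene Chd1 (-0.917, p = 0.0576). From pre-pro-B to pro-B, 29 rose and 14 fell, where 24.8% and 21.1% of all genes did. The H3K27 demethylase gene Kdm6a fell from 4.62 to 1.12 peaks per library, while Uhrf1, which guides maintenance DNA methylation, rose from 2.62 to 6, the envelope gene Sun2 from 4 to 7.25 and the Polycomb gene Cbx8 from 2 to 5.25 (permutation test, adjusted p = 0.00164 for each). From pro-B to small pre-B, 9 rose and 11 fell, where 11.4% and 11.9% of all genes did: the remodeller gene Chd1 went from 4.88 to 7.75, the Polycomb gene Cbx7 from 5.12 to 7.75, the BAF gene Smarce1 from 2.12 to 3.88 and the condensin II gene Ncaph2 from 3.88 to 2.38 (adjusted p = 0.00467 for each).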

How the data were processed

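Open chromatin was measured by ATAC-seq in 24 libraries of 6 groups, and 1 peak list per library was used. Per the submitters' processing notes, reads were trimmed with Trimmomatic and peaks called with MACS2 on mm10 (deepTools, DiffBind and DESeq2 are named there too). The aligner and the versions are not given in the sources used here, and no read counts were used. Each list holds, as deposited by the authors, a score (10 times the -log10 q, as a whole number), a fold enrichment of the summit over background, and the -log10 p and -log10 q of the summit. Such values are relative to their own library, so they served only to rank peaks within a list and, for background coverage, to solve the coverage of weak summits.

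Entries that overlapped or touched were joined on chromosomes 1 to 19 and X and assigned to the gene records of the RefSeq table for GRCm38.p6. That table gives no strand, so both gene ends were used, while strand and starts came from the RefSeq promoter table. Genes needed a value in at least 4 libraries. The permutation tests ran in Python 3.11.15 (NumPy 2.4.6, pandas 2.3.3, SciPy 1.17.1, numba 0.67.0) and were tested on simulated data, limma 3.58.1 ran in R 4.3.3, and figures used matplotlib 3.10.9.

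The members and gene lists were chosen with earlier results of these data known. Every called member was named, with values for up to 6 members of smallest p per comparison and measure. Also named were regions present in at least 7 of 8 libraries of 1 stage and at most 1 of 8 of the next. Of the other genes of the complexes and of related roles, up to 4 per comparison were named. The 6 promoters of the first step were chosen after the values were seen, as the called members with a listed start within 1 kb of a gene end that moved most either way. Alternatives were other list lengths, distances, covered length, a replicate block and leaving out libraries. The stratum by chromosome Y entries, and the ranks without the 3 libraries named in the report, were chosen after seeing the data. CTCF motifs were not searched.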

Additional observations from a re-analysis of the deposited data

Results flagged for a closer look

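In 15 of the 102 sets of values examined (the 4 libraries of a group, or the 8 of a stage), 1 library lay far from the rest by Dixon's test, or 14.7%. The nominal rate of about 1 in 20 is for continuous values and cannot be set against this share, since most flags came from counts. In 12 of the 15, all in stages of 8, the other 7 libraries had the same count and 1 differed by 1 peak, a split that the test always flags. In pre-pro-B, Ehmt2 had 1 gene-end peak in WT replicate 2 where the other 7 had 2, and Pds5a had 1 in Mki67-/- replicate 4 where they had 2. In pro-B, Mki67-/- replicate 4 had 9 peaks at Arid1a where the other 7 had 10, and 2 gene-end peaks where they had 3. Yy1 had 1 gene-end peak in Mki67-/- pro-B replicate 1 and 2 in the rest, Stag2 had 4 peaks in WT pro-B replicate 4 and 3 in the rest, and Lbr had 1 other peak in WT pro-B replicate 1 and 0 in the rest. In small pre-B, Smarca5 had 2 peaks, and 2 gene-end peaks, in Mki67-/- replicate 2 and 1 in the rest, and Npm1 had 3 peaks in Mki67-/- replicate 1 and 4 in the rest. WT small pre-B replicate 1 had 2 gene-end peaks at Stag2, against 1 in the rest, and 3 other peaks at Cbx5, against 2.

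Among the ranks, Wapl had no gene-end peak in Mki67-/- pro-B replicate 2, where the other 7 libraries of the stage lay at 3202 to 4355, so the gap took 0.969 of the range. That library had a peak at the listed start of Wapl, 1549 bp inside the gene and beyond the 1 kb limit. Setd2 lay at 3267 in WT pro-B replicate 1 and at 1546 to 1997 in the rest. Banf1 lay at 3614 in Mki67-/- small pre-B replicate 1, a library with a background coverage of 1.86, and at 4602 to 5404 in the rest.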

How the results depend on the processing

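No member passed by genotype in any peak count or region under any alternative run, with 0 to 0 calls when 1 library was left out. The 1 rank call by genotype became 0 with the chromosome Y stratum, without the 3 doubted libraries and with the replicate block (difference 6446, adjusted p = 0.124, permutation test). It became 0 to 3 when 1 library was left out, with Eed, Satb1 and Kmt2d as the other members called. Among the 20000 strongest peaks 0 members were called, but Dnmt3b had a gene-end peak there in fewer than 4 libraries and was not tested. The 1 member whose genotypes did not overlap in a single stage became 0 with the 40000 strongest peaks.

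At the first step, the 22 members called for peaks became 14 with the 20000 strongest (9 higher, 5 lower) and 37 in covered length (3 higher, 34 lower). The 7 called for gene-end peaks became 4 with the 20000, 0 with the replicate block and 0 within 500 bp, and the 19 for other peaks became 12 with the 20000. At the second step, the 10 called for peaks became 0 with the replicate block, 5 in the gene body alone and 18 in covered length. The 0 for gene-end peaks became 1 (Chd4) within 500 bp, and the 12 for other peaks became 0 with the replicate block. Leaving out 1 library gave 22 to 24, 7 to 8, 19 to 21 and 20 to 25 members for peaks, gene-end peaks, other peaks and ranks at the first step, and 9 to 12, 0 to 0, 12 to 13 and 16 to 21 at the next, with 55 to 59 and 20 to 22 regions. The cause of these changes was not tested, except that the block leaves fewer permutations. Whether replicate numbers pair the samples is not settled here. Deviations of same-numbered libraries correlated at -0.16 to 0.09 between genotypes, -0.04 to 0.03 at the first step and -0.03 to 0.03 at the next. Of the libraries, 6 of 12, 3 of 8 and 4 of 8 correlated best with their own number. Entries on chromosome Y followed the number in pre-pro-B and pro-B, with 20 to 25 in replicates 1 and 2 and 38 to 63 in replicates 3 and 4. In small pre-B they were 18 in Mki67-/- replicate 1 and 33 to 42 in the rest, without that split. The steps between stages were not run with this stratum, and Stag2 and Atrx, called at the last step, lie on chromosome X. A batch or sex shared by number was not tested.

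Directions that reversed, with the reversed value itself past the threshold for Nipbl, Stag1 and Ehmt1 on the deposited lists and Nipbl with the 20000, as differences in peaks at the first step, were Nipbl (-3.62), Stag1 (-3.5), Ehmt1 (-2) and Cbx5 (-0.125) on the deposited lists, Nipbl (-2), Cbx5 (-0.25), Ehmt2 (-0.25), Hells (0.125) and Pds5a (0.375, also at gene ends) with the 20000 strongest, and Lbr (0.125) and Ehmt2 (-0.25) in the gene body alone. In other peaks they were Nipbl (-3.62), Stag1 (-3.5), Ehmt1 (-2.12) and Cbx5 (-0.875) on the deposited lists and Nipbl (-2), Cbx5 (-0.25) and Ehmt2 (-0.25) with the 20000. In covered bp, where peaks were narrower at pro-B, they were Nipbl (-1620), Dnmt3a (-986), Cbx3 (-588), Rad21 (-481), Cbx5 (-367), Trim28 (-350), Smarca5 (-222), Arid1a (-91.6) and Pds5b (-64). At the next step they were Smarca4 (-1.5 in peaks, -1.62 in other peaks) and Stag2 (0.25) on the deposited lists, Ehmt2 (0.625 in both) with the 20000, and Npm1 (-183 bp) in covered length. The lists limit depth: the weakest of the 40000 peaks had a -log10 q from 11.23 to 43.8 over the libraries, so an absent peak in a shallow library says only that none was called.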
